A study of Homo sapiens with 6 samples.

Results

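Genes of glycolysis, glucose sensing and the hypoxia response were examined in LX-2 cells, a human line derived from hepatic stellate cells, after silencing of OGT. OGT places a single sugar, O-linked N-acetylglucosamine (O-GlcNAc), on nuclear and cytosolic proteins. The 43 genes were a fixed list of symbols, each of which was found once among the 16907 symbols of the count files. They were sorted by role, from glucose uptake through the glycolytic steps to lactate export, then the TXNIP and ARRDC4 glucose response, the hypoxia-inducible factors (HIF) and the targets of HIF. The siControl group had been transfected with a control siRNA and the siOGT group with an siRNA against OGT, both at 20 nM for 72 h, in DMEM with 5% fetal bovine serum. There were 3 libraries per group, described in the study as independent experiments, and libraries with the same replicate number were paired. LX-2 is a single cell line, so other stellate cells were not covered. RNA in bulk samples is measured per library, and a change in the number of cells and a change in RNA per cell cannot be told apart.

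Glycolysis turns glucose into pyruvate, which is either reduced to lactate and exported or passed to mitochondria through pyruvate dehydrogenase. Early in the pathway, fructose 6-phosphate is also the branch point of the hexosamine pathway, which makes the sugar donor that OGT uses. Rising glucose phosphate is sensed by MondoA (encoded by MLXIP), which with its partner MLX turns on TXNIP and ARRDC4, and TXNIP in turn restrains glucose uptake. HIF factors are destroyed through prolyl hydroxylases when oxygen is present and raise glucose transporters, glycolytic enzymes and genes such as VEGFA when it is scarce. Myofibroblastic stellate cells are known for a high glycolytic rate.

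Libraries held from 25996770 to 27966801 expected counts. OGT fell by 2.18 on the log2 scale (SE 0.073, edgeR adjusted p-value 2.71e-12), and in no pair did the libraries go against their label. Stellate cell markers such as COL1A1 and VIM were abundant. From 8718 to 10620 CPM (counts scaled to a common library size) were summed over that list of 12 genes. ACTA2 (4.83 to 9.69 CPM) and PDGFRA (6.90 to 10.1 CPM) were low. Of the 12 genes, 3 were called higher (25%) and 5 lower (41.7%), COL1A1 among the latter, against 12.7% of all genes in each direction. The 6 hepatocyte markers in the files summed to between 3.55 and 4.56 CPM in siControl and between 3.58 and 3.85 CPM in siOGT, mostly SERPINA1 (at most 4.44 CPM), with ALB at no more than 3 counts in a library. The 5 endothelial markers summed to between 3.93 and 8.37 CPM in siControl and between 3.52 and 6.39 CPM in siOGT, and VWF, at most 4.01 CPM, was called lower (log2 fold change -0.93, edgeR adjusted p-value 0.0108). The 6 epithelial markers summed to between 88.7 and 128 CPM in siControl and between 91.4 and 129 CPM in siOGT, of which SOX9, a transcription factor, held from 83.1 to 122 CPM and KRT7 at most 8.05 CPM, while EPCAM had at most 3 counts in a library. The summed leukocyte list (7 genes) ranged from 132 to 164 CPM in siControl and from 178 to 209 CPM in siOGT. CD68, a lysosomal protein gene that macrophages use heavily, carried this change (log2 fold change 0.46), while CD14 was at most 7.78 CPM and PTPRC between 0.33 and 0.85 CPM. The part of these lists in the results was not tested.

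The promoters of TXNIP and ARRDC4 are shown first, since the sequence that MondoA and MLX recognise, the carbohydrate response element, is built from E boxes, and the promoter of PGK1, a glycolytic gene used widely as a HIF target, is shown beside them. The sequences are the 250 bases before the RefSeq start site on GRCh38.p14, 5′ to 3′ on the gene's strand. Those of TXNIP and ARRDC4 have CACGTG or CACGAG in capitals, and that of PGK1 has the core of the hypoxia response element, ACGTG or GCGTG, in capitals, on either strand (the reverse strand of ACGTG reads CACGT). The windows lie at chr1:145996580-145996829 (minus strand), chr15:97960453-97960702 (plus strand) and chrX:78103998-78104247 (plus strand).
TXNIP: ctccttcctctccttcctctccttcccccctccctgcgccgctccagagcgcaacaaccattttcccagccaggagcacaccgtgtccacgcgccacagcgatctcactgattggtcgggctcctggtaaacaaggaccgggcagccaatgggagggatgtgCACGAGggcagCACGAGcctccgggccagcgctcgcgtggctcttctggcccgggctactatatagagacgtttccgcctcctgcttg
ARRDC4: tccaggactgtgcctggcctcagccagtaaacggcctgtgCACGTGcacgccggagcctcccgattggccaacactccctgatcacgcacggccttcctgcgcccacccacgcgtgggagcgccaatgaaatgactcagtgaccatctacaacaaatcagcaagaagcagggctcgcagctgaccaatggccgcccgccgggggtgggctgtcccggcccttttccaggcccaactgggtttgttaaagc
PGK1: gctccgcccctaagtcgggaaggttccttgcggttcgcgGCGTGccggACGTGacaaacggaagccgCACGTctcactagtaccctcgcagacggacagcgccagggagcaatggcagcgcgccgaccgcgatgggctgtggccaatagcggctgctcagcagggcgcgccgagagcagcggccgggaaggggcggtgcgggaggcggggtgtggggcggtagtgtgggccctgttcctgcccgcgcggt
In TXNIP 2 copies of CACGAG stood on one strand with 5 bases between them, from base -88 to base -72 before the start. This layout, with any base at the fifth position of each copy, was found in 20 of 35116 promoter windows of 300 bases in RefSeq (0.057%) and in no other listed gene. ARRDC4 had a single CACGTG from base -210 to base -205, a word present in 7.26% of all windows and in 10 of the 68 windows of listed genes (14.7%). The 10 listed genes with this word included GAPDH, LDHA, ALDOA, HK2 and PDK2, which were not called, and 1 gene called higher (ARRDC4) and 1 called lower (ALDOC). ACGTG or GCGTG, which overlaps CACGTG, was present in 48.4% of all windows and in 46 of the 68 windows of listed genes (67.6%). RefSeq windows were matched for 37 of the 43 genes and not for SLC2A3, PFKFB2, SLC16A1, BNIP3L, VEGFA and NDRG1. These matches are letters in a window, and binding was not measured.

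The effect of OGT silencing on the list was then determined. Of the 43 genes 42 were tested, and 6 were called higher and 13 lower in siOGT, a call being an adjusted p-value of at most 0.05 over all 14853 genes tested. SLC2A1, SLC2A3, TXNIP, ARRDC4, KDM3A and VEGFA transcripts rose, whereas transcripts of several glycolytic enzymes, lactate transporters and HIF subunits fell. Among all genes tested, 25.4% were called, 12.7% higher and 12.7% lower. The share of listed genes called lower (31.0%) was above that background and the share called higher (14.3%) was near it. The list was chosen with earlier results of these data known, so its shares are not an independent test. Calls are more frequent among abundant genes: among the 9620 genes whose mean reached 10 CPM, 32.5% were called, 16.3% higher and 16.2% lower, and 38 of the listed genes were in that range. The median log2 fold change was -0.13 over the listed genes and 0.0068 over all genes tested. Most changes were small, and ARRDC4 alone was called with a change of at least 2-fold. The calls rested on pairing: without the replicate block 3 listed genes were called (SLC2A3, PFKL and ARRDC4) against a background of 0.875%. DESeq2 called 18 listed genes with the block, against 19.2% of its genes, and 7 without it, against 6.77%. Leaving out replicate 1 left 4 listed genes called higher and 5 lower, while calls over all genes went from 3766 to 1803. In 6 listed genes all siOGT libraries lay above all siControl libraries in CPM and in 14 below, against 12.1% and 11.8% of all genes. The 14 included ANKRD37, whose counts were 11, 11 and 12 in siControl and 11, 10 and 10 in siOGT.

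**Figure D1:**
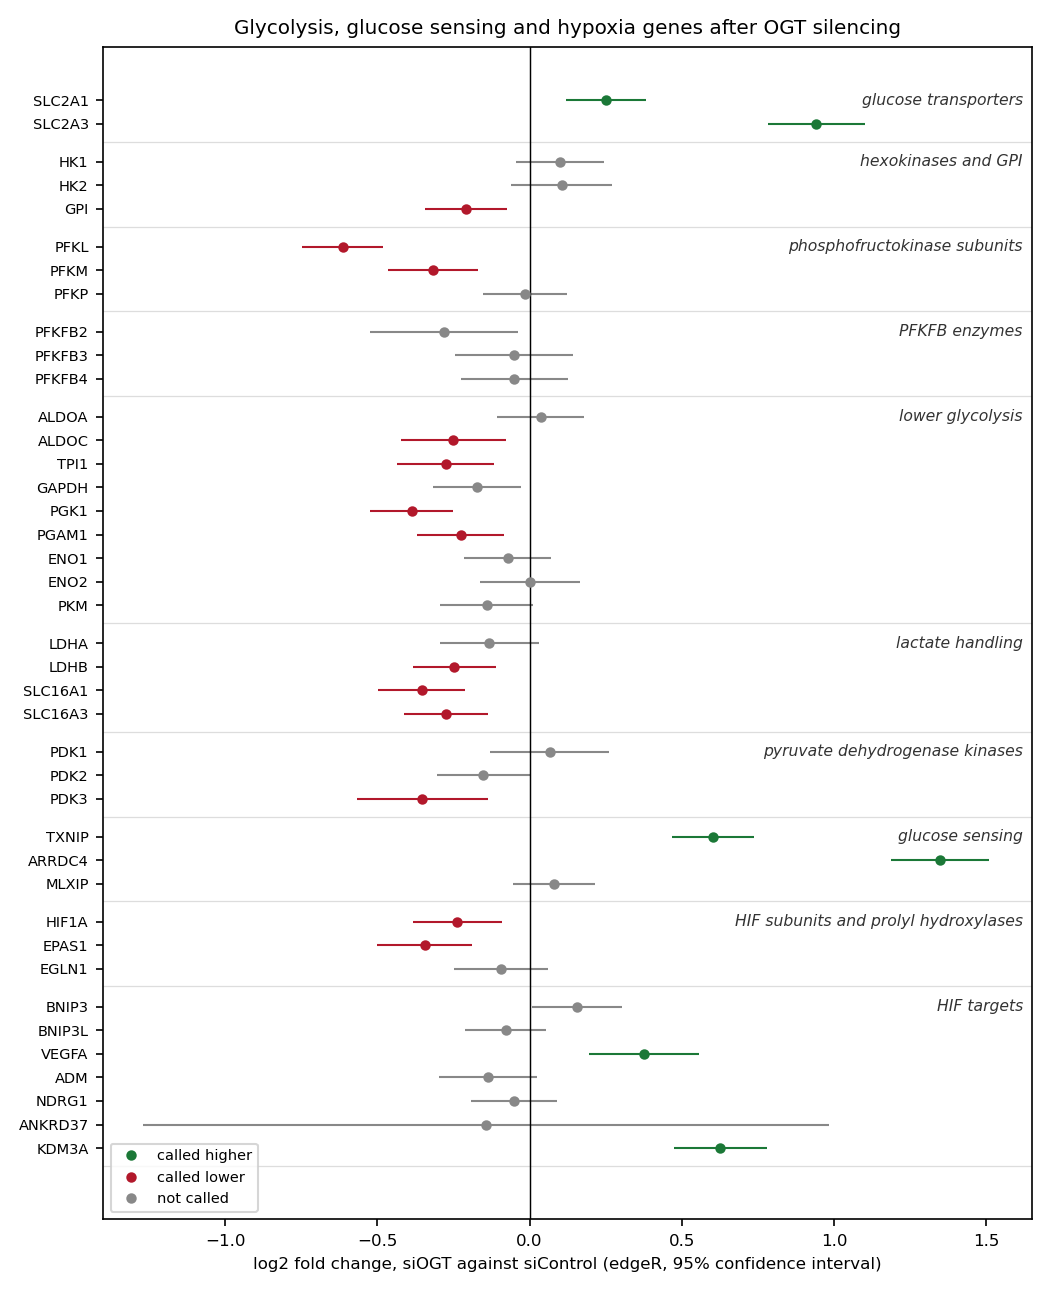
Log2 fold changes of listed genes in siOGT against siControl, by role, with 95% confidence intervals from edgeR. PDK4, EGLN3 and CA9, with at most 7 counts in a library, are not drawn. Points to the right of 0 are higher in siOGT. Among called genes ARRDC4 at 1.35 is the highest and PFKL at -0.61 the lowest.

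Both listed glucose transporters rose. SLC2A1, which encodes GLUT1, the widespread basal transporter, had 101, 106 and 101 CPM in siControl and 118, 127 and 121 CPM in siOGT. SLC2A3 (chromosome 12, 7919230 to 8019007, minus strand, GENCODE 44), which encodes the high-affinity transporter GLUT3, had 24.1, 17.2 and 20.9 CPM in siControl and 47.8, 31.7 and 40.5 CPM in siOGT. In both genes all siOGT libraries were above all siControl libraries. The log2 fold change was 0.25 for SLC2A1 (SE 0.063, edgeR adjusted p-value 0.00725) and 0.94 for SLC2A3 (SE 0.076, edgeR adjusted p-value 3.05e-07). With replicate 1 left out SLC2A1 was no longer called (adjusted p-value 0.0717), whereas SLC2A3 was called under all 10 alternatives. SLC2A3 is nearly identical to SLC2A14 in sequence, and its expected counts were not whole in any library. SLC2A14 was assigned between 1 and 3 counts per library.

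The ratio between the transporters also shifted. Per kilobase of annotated exon, SLC2A3 made up 17.9%, 12.9% and 15.9% of the summed level of both genes in siControl and 27.0%, 18.5% and 23.4% in siOGT. The log2 ratio of SLC2A3 to SLC2A1 counts within a library was higher in siOGT in 3 of 3 pairs, by 0.69 ± 0.075 (SD, n = 3 pairs). With 3 pairs the exact two-sided sign-flip permutation test cannot go below p = 0.25, the value found here (0.50 when adjusted over the 14 ratios computed).

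**Figure D2:**
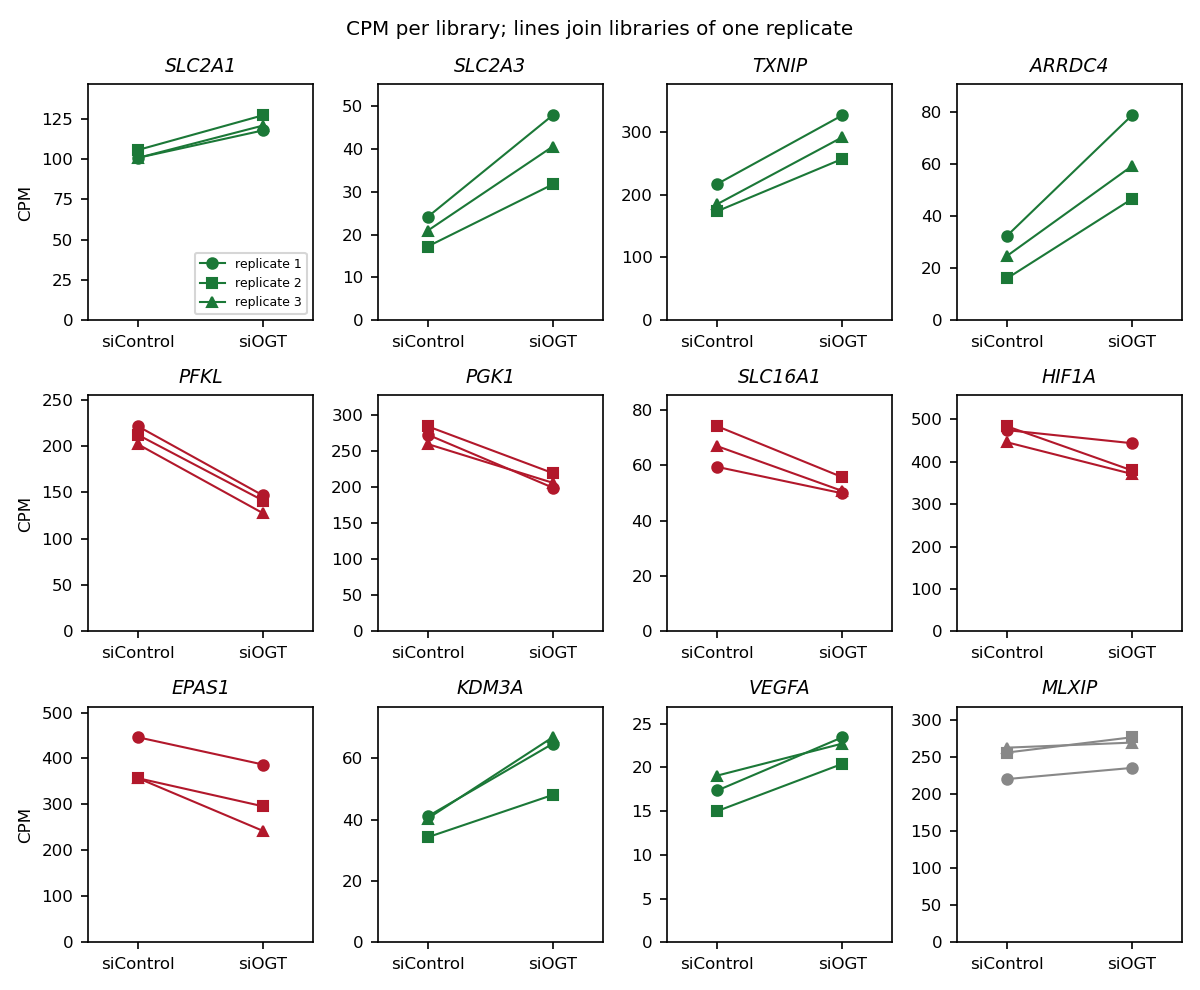
CPM of 12 listed genes in each library, with the y axis from 0 and a line joining the libraries of each replicate (green, called higher; red, called lower; grey, not called). In SLC2A3, TXNIP, ARRDC4 and KDM3A all siOGT points lie above all siControl points, in PFKL all lie below, and in EPAS1 siOGT 1 at 387 CPM lies above 2 siControl libraries.

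TXNIP and ARRDC4 rose together. TXNIP (chromosome 1, 145992435 to 145996579, minus strand), an arrestin-like protein that binds thioredoxin and promotes removal of glucose transporters from the cell surface, had 217, 174 and 185 CPM in siControl and 326, 257 and 291 CPM in siOGT. ARRDC4 (chromosome 15, 97960703 to 97973833, plus strand), its relative in the arrestin family, had 32.4, 16.1 and 24.7 CPM in siControl and 78.6, 46.6 and 59.2 CPM in siOGT. The groups did not overlap for either gene. The log2 fold change was 0.60 for TXNIP (SE 0.064, edgeR adjusted p-value 5.61e-06), a rise of 51.8%. For ARRDC4 it was 1.35 (SE 0.077, edgeR adjusted p-value 5.09e-09), a 2.55-fold rise and the largest among called listed genes. ARRDC4 was called under all 10 alternatives and TXNIP under 9, with an adjusted p-value of 0.0502 in edgeR without the block. In both genes replicate 1 was highest and replicate 2 lowest in each group. ARRDC4 rose more than TXNIP, the log2 ratio of their counts being higher in siOGT by 0.75 ± 0.19 (SD, n = 3 pairs, exact sign-flip permutation p = 0.25).

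MLXIP, which encodes MondoA itself, had 220, 256 and 263 CPM in siControl and 235, 277 and 270 CPM in siOGT. Its log2 fold change was 0.08 with a 95% confidence interval from -0.05 to 0.22, and it was not called (edgeR adjusted p-value 0.389). Its levels overlapped between groups, although each pair was higher in siOGT. The 14 related genes examined were genes around MondoA and MLX, other arrestin-family genes and thioredoxins. Of these, 3 were called higher (21.4%) and 2 lower (14.3%), against 12.7% of all genes tested in each direction. ARRDC3, another arrestin-family gene, was higher by 0.64 on the log2 scale (edgeR adjusted p-value 9.67e-06), and MLX, the partner of MondoA, by 0.19 (0.0427). The call of MLX was lost without any 1 of the replicates (0.276, 0.0905 and 0.063) and with DESeq2 with the block (0.123). Of the MXD repressors, MXD1 was higher (0.53, edgeR adjusted p-value 6.94e-04) and MXD3 lower (-0.57, 6.45e-04). MLX was chosen after its values were seen, whereas the other genes met the rule for named pathway genes.

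At the first steps of glycolysis the hexokinases were not called. HK1 and HK2, which trap glucose by phosphorylating it, had log2 fold changes of 0.10 and 0.11, with 95% confidence intervals from -0.04 to 0.24 and from -0.06 to 0.27. With replicate 3 left out HK2 was called higher (0.22 on the log2 scale, edgeR adjusted p-value 0.0312). HK2 was also among the genes that varied most between experiments, with 66.7, 40.2 and 57.4 CPM in the siControl libraries. GPI, which converts glucose 6-phosphate into fructose 6-phosphate, had 285, 300 and 297 CPM in siControl and 245, 254 and 264 CPM in siOGT, with no overlap. It fell by 0.21 on the log2 scale (SE 0.064, edgeR adjusted p-value 0.0235). The call of GPI was lost without replicate 1 (0.20) and without replicate 2 (0.104).

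Phosphofructokinase, the committed step of glycolysis, is a tetramer of liver-type, muscle-type and platelet-type subunits. PFKL (chromosome 21, 44300051 to 44327376, plus strand), the liver-type subunit, had 221, 212 and 202 CPM in siControl and 147, 141 and 127 CPM in siOGT. PFKM, the muscle-type subunit, had 62.8, 71.0 and 68.8 CPM in siControl and 52.6, 60.2 and 50.2 CPM in siOGT. All siOGT libraries were below all siControl libraries in both genes. PFKL fell by 34.7% (log2 fold change -0.61, SE 0.064, edgeR adjusted p-value 4.31e-06) and was called under all 10 alternatives. For PFKM the log2 value was -0.32 (SE 0.070, adjusted p-value 0.00302 by edgeR). PFKP, the platelet-type subunit, did not pass the test (log2 fold change -0.02, 95% confidence interval -0.15 to 0.12), and its sign turned with library totals alone (0.0064).

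The subunits therefore changed unequally. Per kilobase of exon, PFKL held 50.8%, 51.8% and 50.1% of the summed subunit level in siControl, and 42.6% ± 0.37 (SD, n = 3) in siOGT, where no library came near the siControl range. The share of PFKP was 29.0% ± 2.31 in siControl and 36.8% ± 2.17 in siOGT (SD, n = 3 each), and that of PFKM was 20.1% ± 1.99 and 20.6% ± 1.89 (SD, n = 3 each). Within libraries, the log2 ratio of PFKP to PFKL counts rose by 0.60 ± 0.055 and that of PFKM to PFKL by 0.30 ± 0.078 (SD, n = 3 pairs), each in 3 of 3 pairs (exact sign-flip permutation p = 0.25 for each). The PFKFB enzymes, which make and remove fructose 2,6-bisphosphate, the activator of phosphofructokinase, were not called. PFKFB2 had from 8.38 to 9.24 CPM in siControl and at most 7.81 CPM in siOGT, with no overlap but an edgeR adjusted p-value of 0.0842 (log2 fold change -0.28). PFKFB3 and PFKFB4 had log2 fold changes of -0.05 each.

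**Figure D3:**
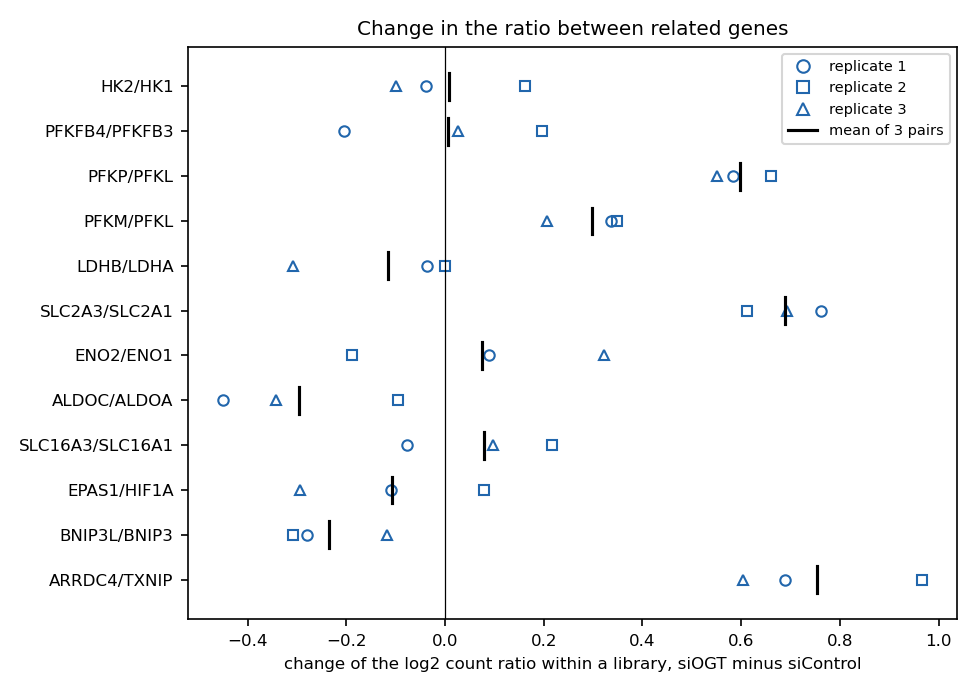
Change in the log2 count ratio of related genes within a library, siOGT minus siControl, for each replicate pair (symbols) and their mean (bar). PFKP/PFKL, PFKM/PFKL, SLC2A3/SLC2A1 and ARRDC4/TXNIP lie above 0 in 3 of 3 pairs, ALDOC/ALDOA and BNIP3L/BNIP3 below it, and 2 ratios with PDK4 or EGLN3 are not drawn because of their low counts.

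In lower glycolysis 4 of 9 genes were called lower (44.4%) and 0 higher, against 12.7% of all genes tested in each direction. PGK1, which makes the first ATP of the pathway, had 272, 284 and 259 CPM in siControl and 199, 219 and 206 CPM in siOGT. TPI1, which interconverts the triose phosphates, had 940, 1034 and 914 CPM in siControl and 722, 787 and 880 CPM in siOGT. PGAM1, the phosphoglycerate mutase, had 263, 289 and 254 CPM in siControl and 206, 246 and 237 CPM in siOGT. The groups did not overlap for these genes. On the log2 scale PGK1 changed by -0.39 (SE 0.064, adjusted p-value 3.31e-04 by edgeR), TPI1 by -0.28 (SE 0.075, 0.0123) and PGAM1 by -0.23 (SE 0.068, 0.0206). The calls of TPI1 and PGAM1 were lost without replicate 1 (0.212 and 0.312) and without replicate 2 (0.0686 and 0.0505). ALDOC, a minor aldolase, had 27.9, 46.8 and 31.5 CPM in siControl and 20.1, 43.6 and 27.4 CPM in siOGT. Its groups overlapped, and it was called through the pairing (log2 fold change -0.25, SE 0.082, edgeR adjusted p-value 0.0316). That call was lost when replicate 1 was left out (-0.15 on the log2 scale, adjusted p-value 0.35), with library totals alone (0.0509) and with DESeq2 with the block (0.101).

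The remaining 5 genes of lower glycolysis were not called, with log2 fold changes from -0.17 for GAPDH to 0.04 for ALDOA. GAPDH was lower in 3 of 3 pairs, with an edgeR adjusted p-value of 0.0744, and was called by DESeq2 with the block (0.0266). PKM, the pyruvate kinase of most dividing cells, had 5291, 6257 and 5650 CPM in siControl and 4354, 5639 and 5677 CPM in siOGT, so that replicate 3 did not move with the other pairs. With replicate 3 left out it was called lower (-0.22 on the log2 scale, edgeR adjusted p-value 0.0419). Per kilobase of exon, GAPDH, PKM, TPI1, ALDOA and ENO1 had the highest siControl levels of the list. They ran from 2276 CPM per kilobase for GAPDH to 172 for ENO1. SDs over libraries were below the gaps between neighbours in this order. The order also depends on the exon lengths used, which these SDs do not measure. Together the 21 genes from glucose transport to lactate export took 1.563%, 1.684% and 1.667% of the counts in siControl and 1.359%, 1.549% and 1.603% in siOGT. This share was lower in siOGT in 3 of 3 pairs and overlapped between groups. Of these 21 genes, 10 were called lower (47.6%) and 2 higher (9.52%), against 12.7% of all genes in each direction. Among genes whose mean reached 10 CPM, the shares were 16.2% lower and 16.3% higher. The 21 genes belong to a list chosen with earlier results of these data known.

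At the end of the pathway 3 of 4 lactate genes were called lower (75%), against 12.7% of all genes tested. SLC16A1, which encodes the lactate transporter MCT1, had 59.4, 74.1 and 66.9 CPM in siControl and 49.9, 55.7 and 50.8 CPM in siOGT. SLC16A3, which encodes MCT4, the exporter of glycolytic cells, had 85.8, 97.5 and 103 CPM in siControl and 68.3, 85.2 and 83.3 CPM in siOGT. LDHB, the lactate dehydrogenase subunit that favours pyruvate formation, had 163, 168 and 168 CPM in siControl and 129, 145 and 146 CPM in siOGT. No siOGT library reached the siControl range in any of them. Log2 fold changes were -0.35 for SLC16A1 (SE 0.068, edgeR adjusted p-value 0.00108), -0.27 for SLC16A3 (SE 0.065, 0.00489) and -0.25 for LDHB (SE 0.064, 0.00929). Without replicate 1 the calls of SLC16A3 (0.087) and LDHB (0.173) were lost. LDHA, the subunit that favours lactate formation, was not called (log2 fold change -0.13, edgeR adjusted p-value 0.229). LDHA was lower in replicates 1 and 2 (log2 ratios of -0.29 and -0.21), was higher in replicate 3 (0.11), and without replicate 3 was called lower (-0.26, adjusted p-value 0.00816).

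Of the 4 pyruvate dehydrogenase kinases, which close the entry of pyruvate into mitochondria, 1 was called, and it was lower (25%). Over all genes tested 12.7% were called lower and 25.4% in either direction. PDK3 had 15.8, 17.7 and 16.1 CPM in siControl and 10.4, 14.2 and 14.5 CPM in siOGT, below the siControl range in each library. Its log2 fold change was -0.35 (SE 0.10, edgeR adjusted p-value 0.0171), and the call was lost when replicate 1 was left out (-0.23 on the log2 scale, adjusted p-value 0.23). DESeq2 with the block did not call it either (0.083). PDK1 and PDK2 had log2 fold changes of 0.07 and -0.15, and PDK2 was called lower without replicate 3 (-0.25, adjusted p-value 0.0137). PDK4 had between 0 and 4 counts per library, too few for a comparison. Among 10 genes of pyruvate import and the pyruvate dehydrogenase complex, edgeR called 2 higher (20%) and 0 lower. The share over all genes tested was 12.7% in each direction. DESeq2 with the block called 0 lower, and 0 were lower at an unadjusted edgeR p-value under 0.05. PDP2, a phosphatase that opposes the kinases, was higher by 0.42 on the log2 scale (adjusted p-value 2.85e-04 by edgeR), and PDHX, a structural subunit of the complex, by 0.32 (0.00612), with the call of PDHX lost without replicate 1 (0.0659). Both were chosen after their values were seen.

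**Figure D4:**
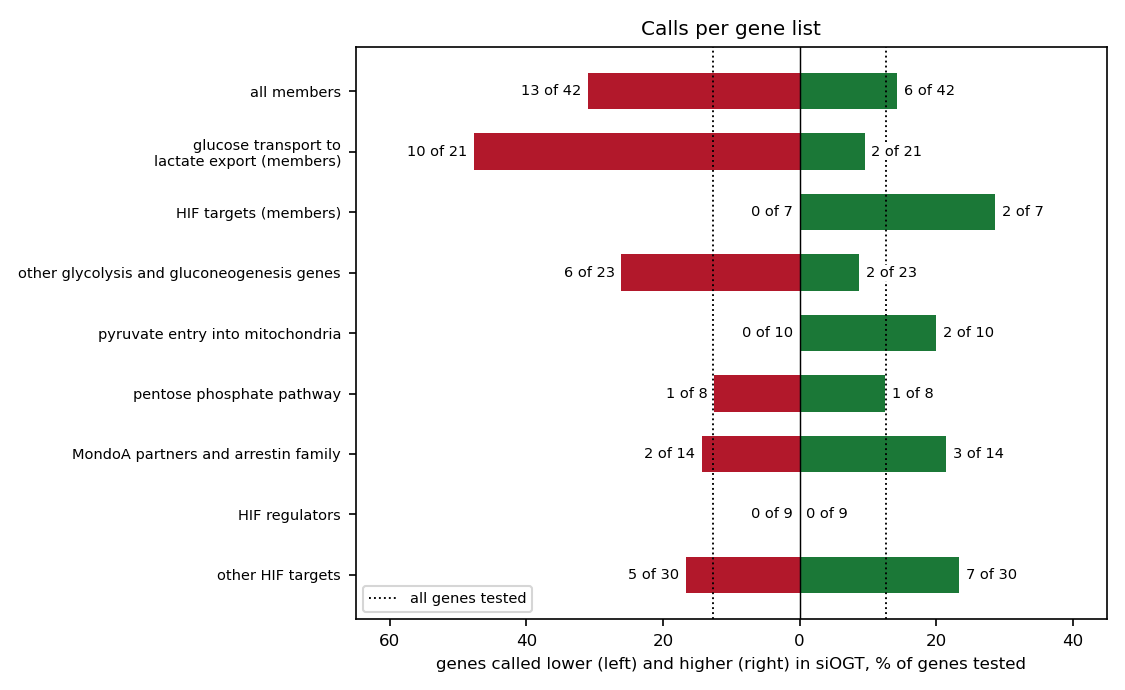
Genes called lower (left, red) and higher (right, green) in siOGT as a percentage of the genes tested in each list, with counts beside the bars. Dotted lines mark the 12.7% of all genes tested that were called in each direction, and the lower calls of the 21 genes from glucose transport to lactate export (10 of 21) extend furthest from the line.

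The messenger RNAs of both HIF alpha subunits fell. HIF1A, the subunit tied to glycolytic genes, had 474, 483 and 446 CPM in siControl and 443, 379 and 371 CPM in siOGT, with every siOGT library below the siControl range. EPAS1, which encodes HIF-2 alpha, had 446, 357 and 357 CPM in siControl and 387, 296 and 243 CPM in siOGT, so that siOGT 1 lay within the siControl range. The log2 fold change was -0.24 for HIF1A (SE 0.069, edgeR adjusted p-value 0.0180) and -0.34 for EPAS1 (SE 0.074, 0.00250). The call of HIF1A was lost without replicate 1 (0.054) and without replicate 2 (0.137). HIF activity is set mainly by protein stability, which was not measured. EGLN1, the main oxygen-sensing prolyl hydroxylase, was not called (log2 fold change -0.09, 95% confidence interval -0.25 to 0.06), and EGLN3 had between 0 and 7 counts per library. Of 9 other regulators tested, such as ARNT and VHL, edgeR called 0, against 25.4% of all genes tested. At an unadjusted edgeR p-value under 0.05 there were 0. DESeq2 with the block also called 0, against 19.2% of its genes. The log2 fold changes of these regulators were between -0.08 and 0.14.

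Of the 7 HIF targets outside glycolysis that were tested, 2 were called higher (28.6%) and 0 lower by edgeR, against 12.7% of all genes in each direction. At an unadjusted p-value under 0.05, 0 were lower, and DESeq2 with the block called 0 lower. KDM3A (chromosome 2, 86440647 to 86492716, plus strand), which encodes a demethylase of histone H3 lysine 9, had 41.0, 34.3 and 40.3 CPM in siControl and 64.7, 48.0 and 66.8 CPM in siOGT. VEGFA, the vascular growth factor, had 17.4, 15.0 and 19.1 CPM in siControl and 23.4, 20.4 and 22.7 CPM in siOGT. Neither gene overlapped between groups. The log2 fold change was 0.63 for KDM3A (SE 0.072, edgeR adjusted p-value 1.14e-05), a rise of 54.4%, and 0.37 for VEGFA (SE 0.086, edgeR adjusted p-value 0.00392). VEGFA lost its call without replicate 1 (0.0513). Of the others tested, BNIP3 and BNIP3L, which mark mitochondria for autophagy, had log2 fold changes of 0.16 and -0.08, and ADM, the vasodilator adrenomedullin, and NDRG1, a stress-induced gene, of -0.14 and -0.05. ANKRD37 had about 10 counts in each library. CA9, a carbonic anhydrase that is often used as a hypoxia marker, had 2 counts in siControl 2 and 0 in the other libraries, and was not tested.

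Other genes of these pathways were examined to place the listed ones. Of 30 further HIF targets, 7 were called higher (23.3%) and 5 lower (16.7%) in siOGT, against 12.7% of all genes in each direction. CA12, a carbonic anhydrase, fell from between 1.16 and 1.77 CPM to between 0.22 and 0.52 CPM (log2 fold change -2.17, edgeR adjusted p-value 8.74e-04). PPFIA4, a liprin, changed by -0.96 on the log2 scale (adjusted p-value 0.00298 by edgeR), and STC2, the secreted glycoprotein stanniocalcin, by 0.67 (4.32e-06). Of 23 further genes of glycolysis and gluconeogenesis tested, 6 were called lower (26.1%) and 2 higher (8.7%), against the same 12.7%. The glucose transporters SLC2A8 (log2 fold change -0.60, edgeR adjusted p-value 3.28e-05) and SLC2A10 (-0.54, 0.0111) were lower, opposite in direction to SLC2A1 and SLC2A3. The call of SLC2A10 was lost without replicate 1 (0.151) and with DESeq2 with the block (0.0773). SLC2A6, named after its values were seen, was also lower (log2 fold change -0.29, edgeR adjusted p-value 0.00443). Its call was lost without replicate 1 (0.0694). Of the same 23 genes, the 2 called higher were TIGAR (log2 fold change 0.41, edgeR adjusted p-value 0.00243) and PGM1 (0.24, 0.0268). They too were named after their values were seen. PGM1 lost its call without replicate 1 (0.0503), without replicate 2 (0.317) and with DESeq2 with the block (0.0886). In the pentose phosphate pathway, which branches off at glucose 6-phosphate, 1 of 8 genes was called higher (PGLS, log2 fold change 0.35) and 1 lower (H6PD, -0.40), which is 12.5% in each direction and near the background. Both were named after their values were seen.

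The genes also varied between the experiments. In 17 of 42 genes the replicate numbers differed (edgeR adjusted p-value of at most 0.05), against 23.6% of all genes tested. SLC2A3, HK2, PFKFB3, TXNIP and ARRDC4 were highest in replicate 1 and lowest in replicate 2 in both groups, and ALDOC, PDK2 and ADM showed the opposite order. For ARRDC4 the siControl libraries spanned 1.01 on the log2 CPM scale and for HK2 0.73, against a median of 0.25 over the listed genes. The log2 fold change exceeded the siControl range for 22 of 42 genes, including genes that were not called, such as GAPDH and EGLN1. This share was not computed over all genes, so the count has no background to be read against. Deviations from the group mean over 39 listed genes with at least 1 CPM were correlated between libraries. For the same number the value was 0.888 for replicate 1, 0.881 for replicate 2 and 0.263 for replicate 3. Between siOGT 3 and siControl 2 it was 0.217, so that in these genes siOGT 3 was hardly closer to its own pair. The points here are genes, which do not count as separate replicates, and each pair of libraries shares its experiment.

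**Figure D5:**
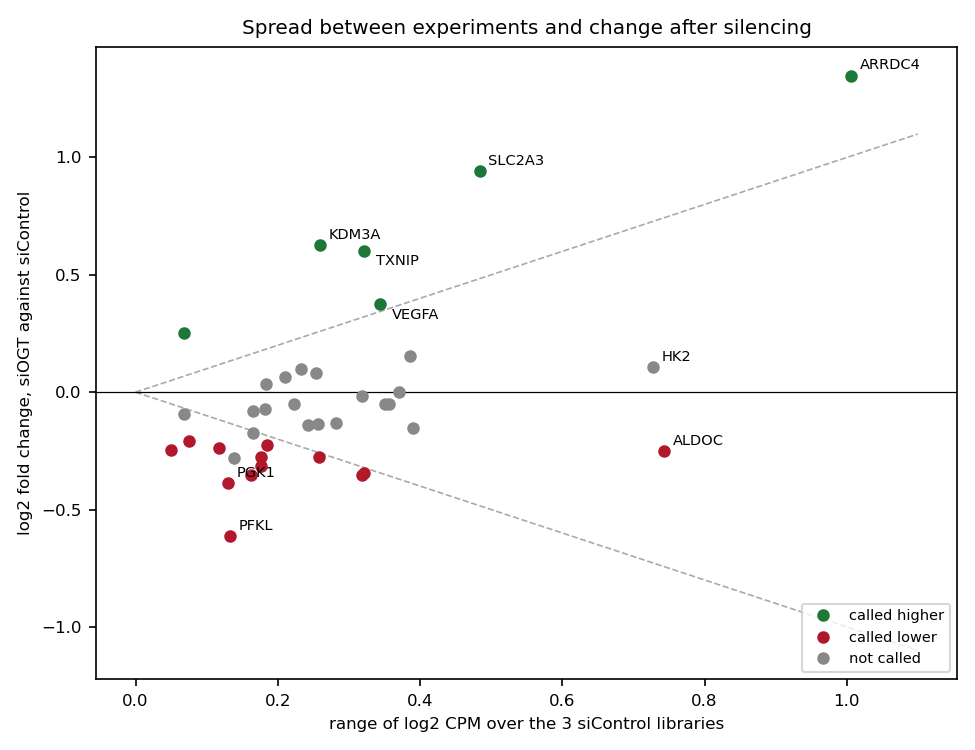
Log2 fold change in siOGT against the range of log2 CPM over the 3 siControl libraries, for the 39 listed genes whose mean reached 1 CPM. Dashed lines mark a change equal to that range: PFKL, SLC2A3, TXNIP, KDM3A and ARRDC4 lie outside them, and HK2 and ALDOC lie inside, with siControl ranges of 0.73 and 0.74.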

How the data were processed

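RNA of 6 LX-2 libraries, 3 siControl and 3 siOGT, was sequenced as stranded, oligo-dT selected, paired-end libraries. The deposited values are expected counts per gene, which the authors made with Bowtie2 2.3.5.1 and RSEM 1.3.1 on hg38, and a deposited table of their own DESeq2 1.36.0 comparison, with fold changes and p-values, was not used. Expected counts were rounded, genes with a total below 10 were removed (14853 of 16907 remained), and siOGT was compared with siControl in R 4.3.3 with the quasi-likelihood test of edgeR 4.0.16, with TMM factors (0.979 to 1.02) and the replicate number as a block. P-values were two-sided and adjusted by Benjamini-Hochberg over all genes tested, with a threshold of 0.05.

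CPM used TMM-scaled library sizes. Log2 ratios of related genes used a pseudocount of 0.5. Positions and exon lengths came from GENCODE 44 on GRCh38 and promoters from RefSeq on GRCh38.p14. Exon lengths joined the exons of all annotated transcripts of a gene, so levels and shares compared between genes depend on them. Expected counts of 36 listed genes were whole in each library, and those of SLC2A3, GPI, PFKM, PFKFB4, PGAM1, PDK3 and MLXIP were not. GPI, PFKFB4, ALDOA, PGK1, LDHB and EGLN1 share exon bases on their strand with another coding gene. The study's methods paired samples by replicate. Over 12373 genes, deviations from the group means correlated between libraries of the same number by 0.688, 0.525 and 0.332. Called listed genes are given per library, and pathway genes were named when called with an absolute log2 fold change of at least 0.5. The listed genes, pathway lists and marker lists were chosen with earlier results of these data known. Alternatives were no block, median-ratio factors, library totals alone, filterByExpr, no filter, DESeq2 1.42.0 with and without the block, and leaving out each replicate pair. The test was checked on simulated data.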

Additional observations from a re-analysis of the deposited data

How the results depend on the processing

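The replicate block had the largest effect of the 10 alternatives. Without the replicate block edgeR called 130 genes in place of 3766, with 2 listed genes higher and 1 lower, and DESeq2 without the block called 849 genes, with 3 listed genes lower. DESeq2 with the block called 2415 genes. Leaving out a replicate pair, which leaves fewer samples, gave from 1803 to 3439 genes, from 4 to 7 listed genes higher and from 5 to 16 lower, the lowest counts being those without replicate 1. Median-ratio factors and filterByExpr left the counts at 6 higher and 13 lower. Every call that was lost kept its direction. Reversals were seen in 6 genes that were not called, all with small log2 fold changes, and the cause was not tested. PFKP was at 0.0064 with library totals alone and ranged from -0.062 to 0.025 when a replicate was left out. The ranges were -0.16 to 0.035 for PFKFB3, -0.13 to 0.024 for PFKFB4, -0.022 to 0.065 for ALDOA, -0.12 to 0.078 for ENO2 and -0.0039 to 0.14 for PDK1. ENO2 was at -0.00046 with median-ratio factors, -0.00072 with DESeq2 with the block and -0.0012 with DESeq2 without it. CA9, PDK4, EGLN3 and ANKRD37 had at most 12 counts in a library, and changes in them were not detectable at this depth. Nothing in the files separates technical from biological spread within a pair.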
